A study of Mus musculus with 8 samples.

Results

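The motor proteins that carry cargo along microtubules were followed in ribosome-bound mRNA of mouse spinal cord. The set comprised 70 protein-coding genes of 38924 genes in the deposited tables. They were chosen by symbol: kinesin heavy chains (Kif and Kifc genes), the kinesin-2 accessory subunit Kifap3, kinesin light chains (Klc), cytoplasmic dynein subunits (Dync and Dynl genes) and the numbered dynactin subunits (Dctn). The pattern also took in Kif1bp, a kinesin-binding protein without a motor domain. It left out dynactin subunits with other names, such as Actr1a, which are described with the pathway lists.

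The study used RiboTag mice, in which Cre recombinase switches on an HA tag on the ribosomal protein Rpl22. Chat-Cre does so in cholinergic cells, which include the spinal motor neurons but also cholinergic interneurons, and antibody to HA then precipitates their ribosomes from a homogenate of whole cord. Mice without Cre went through the same precipitation as negative controls. All mice were of the B6.CgxB6.129 background, and the design text gives all of them as Gars+/+. The genotype entries read Rpl22 +/-; Chat +/- for mice with Cre and Rpl22 +/-; Chat +/+ for mice without, apart from the pair of libraries named below. The 4 groups held 2 libraries each: Cre crushed (animals 35, 18 weeks old, and 52, 9 weeks), no-Cre crushed (51 and 58, 9 weeks), Cre uncrushed (10 and 3, 8 weeks) and no-Cre uncrushed (4 and 6, 8 weeks). Crush was of the sciatic nerve on 1 side, so cord of the intact side was precipitated with that of the injured side, and no source used here gives the time after crush. The crushed and uncrushed mice also differed in age and in a number that is shared by the titles of all uncrushed libraries, and crush cannot be told apart from either. The numbers in the titles were read as animals, which the labels do not state outright, and the p-values measure the spread between these libraries.

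Kinesins use ATP to walk along microtubules, most of them towards the plus end, which in an axon points away from the cell body. Cytoplasmic dynein walks the other way and needs dynactin, a large cofactor, and an adaptor protein for long runs. Motor neurons have some of the longest axons in the body. Vesicles, mitochondria and cytoskeletal proteins leave the soma on kinesins, while signalling endosomes and injury signals come back on dynein, and inherited changes in several of these genes cause motor or sensory neuropathies.

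Library totals ran from 4826979 to 11522721 expected counts, and the members took between 1.147 and 1.451% of the counts in the Cre libraries and between 0.404 and 0.884% in the no-Cre libraries. Mitochondrial ribosomal RNA took between 1.61 and 5.53% of the counts with Cre and between 11.47 and 48.21% without. Levels are given below as CPM, counts scaled by TMM to a common total, which serve to compare 1 gene between libraries. Differences between groups are on the log2 scale, Cre minus no-Cre or crushed minus uncrushed, followed by their standard error. In each pair of values the animals stand in the order 10 and 3, 35 and 52, 4 and 6, 51 and 58. The genotype entry and the title disagreed for animal 3 (titled Cre uncrushed) and animal 4 (titled no-Cre uncrushed). The summed level of 6 markers of cholinergic motor neurons followed the titles: between 1523.8 and 1865.8 CPM in the 4 libraries titled as Cre and between 58.5 and 156.7 CPM in the others, with Mnx1 at 0 counts in the no-Cre uncrushed group. All 6 of these markers were called higher with Cre. Mnx1 passed the filter on low counts, described below, only through Cre libraries, so its call is no support. The markers were set against the titles above, so their calls by title are no separate check of the grouping. All 6 markers of oligodendrocytes, 6 of astrocytes, 6 of microglia and 4 of endothelial cells were lower with Cre. So were 2 of 3 Schwann cell markers, while 3 of 4 pan-neuronal markers were higher. The microglial markers Aif1, C1qa, P2ry12 and Tmem119 passed that filter only through no-Cre libraries, so the calls of these 4 are no support for a difference. Of 3 tested markers of sensory ganglion neurons 1 was higher, Calca, which motor neurons also make.

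Of the 70 members, 57 passed the filter on low counts and were tested. The 13 others were Dynlrb2, Dynlt1f, Kif12, Kif14, Kif15, Kif18b, Kif26a, Kif28, Kif2b, Kif2c, Kifc1, Kifc5b and Klc3, none of which exceeded 15 counts in any library. Among the tested members 43 reached the filter's level of 1.36 CPM in both libraries of all 4 groups, and the other 14 passed it through only some groups. Kif19a, Kif20b, Kif23, Kif27 and Kif7 reached it in 2 or more libraries only without Cre, and no member did so only with Cre. Over all 8 libraries, with crush as a second term in edgeR's quasi-likelihood model, 25 of the 57 members were higher with Cre (28.7% of all 15208 genes tested were) and 13 were lower (31.2% of all genes, or 59.9% in both directions together). Among members 43.9% were thus called higher and 22.8% lower. The 13 lower ones include Kif19a and Kif27, which passed the filter only through no-Cre libraries, so their calls are no support. The median log2 difference was 0.298 over the members and -0.067 over all genes tested. The counts and the median describe the members that passed the filter. In bulk precipitates a smaller share of a cell type and less RNA per cell cannot be told apart, so these are differences in the share of the precipitated mRNA.

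The uncrushed and crushed libraries gave comparisons of Cre with no-Cre that share no library. Both came from the same model, with a shared filter, scaling and estimate of spread. Their calls are thus not independent, and an overlap between them is not a replication. In the uncrushed libraries 20 members were higher (20.6% of all genes) and 11 lower (21.9% of all genes, 42.5% in both directions). The 11 lower ones include Kif27, whose call is no support. In the crushed libraries 21 members were higher (21.6% of all genes) and 9 lower (21.3% of all genes, 42.9% in both directions). Of the members called higher, 19 were called in both comparisons, which is 95.0% of the uncrushed and 90.5% of the crushed calls. Over all genes the shares were 79.8% and 76.2%. For members called lower the overlap was 9, which is 81.8% of the uncrushed calls and all of the crushed ones, against 71.6% and 73.8% over all genes, and no member was called in opposite directions. Without the pair of libraries with contradictory entries, 15 members were higher and 9 lower in the uncrushed (10.3% and 9.86% of all genes), 21 and 9 in the crushed (22.3% and 22.0%) and 24 and 14 in all libraries (25.8% in each direction). Without Cre crushed animal 35, which was 18 weeks old, 15 members were higher and 4 lower in the crushed libraries, where the shares of all genes also went down, to 10.8% higher and 6.1% lower. With the libraries grouped by the genotype entry instead of the title, no member was called in any of the 3 comparisons, and neither was any other gene (0.0% of 15208), so the members' count of 0 is that of all genes. Scaling by totals without TMM moved the all-gene median up by 0.68 log2 units in the uncrushed libraries and gave 27 members higher and 3 lower there, beside 31.3% and 9.62% of all genes. In the crushed libraries it gave 19 and 6 (18.7% and 12.6% of all genes), and in all libraries 30 and 9 (34.6% and 19.8%).

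**Figure D1:**
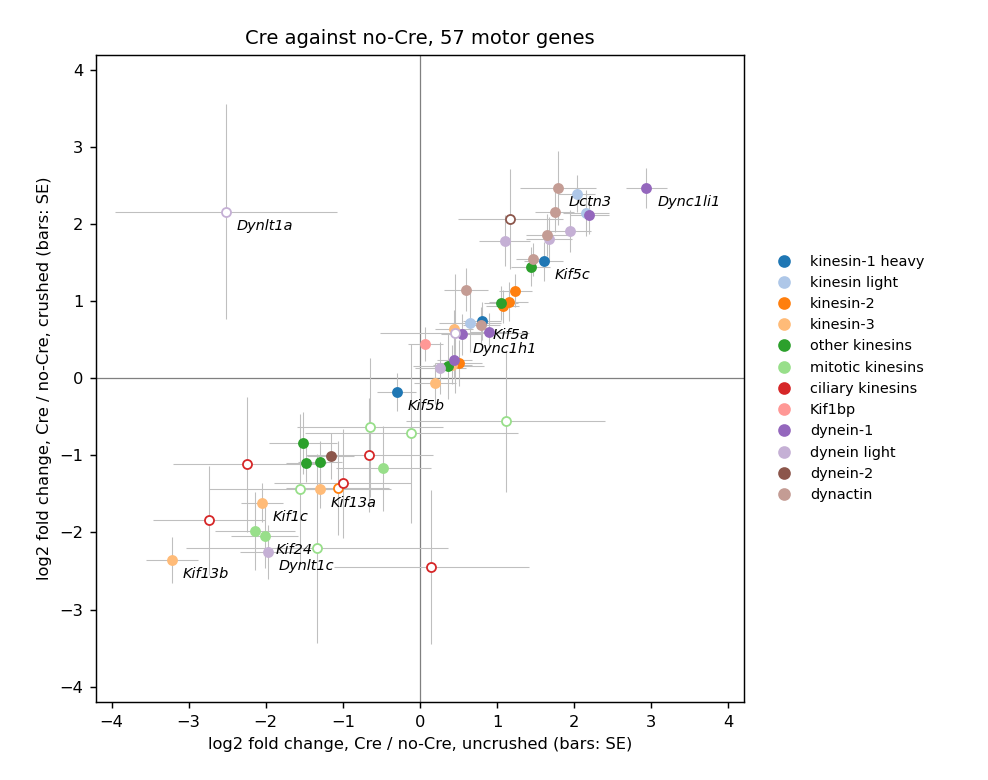
Log2 fold change of Cre against no-Cre for the 57 tested members, with the uncrushed libraries on the x axis and the crushed libraries on the y axis, each from 2 against 2 libraries. Colours give the role class, bars the standard error, and open symbols mark the 14 members that did not reach 1.36 CPM in both libraries of every group. Most filled symbols lie near the diagonal, from Kif13b at -3.22 and -2.36 to Dync1li1 at 2.94 and 2.47.

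Kinesin-1, the motor of fast transport towards axon tips and of slow transport of cytoskeletal proteins, is a pair of heavy chains (Kif5a, Kif5b or Kif5c) with a pair of light chains. Kif5c was at 1249 and 1474 CPM in the Cre uncrushed, 991 and 1018 in the Cre crushed, 496 and 399 in the no-Cre uncrushed and 336 and 366 in the no-Cre crushed libraries. Every Cre library lay above every no-Cre library, with a log2 difference of 1.56 ± 0.18 (adjusted p = 1.09e-05) over all libraries. Kif5a, whose changes in humans cause spastic paraplegia and axonal neuropathy, measured 1064 and 1342 CPM (uncrushed) and 929 and 994 CPM (crushed) with Cre, against 714 and 662 CPM (uncrushed) and 577 and 566 CPM (crushed) without Cre. Its groups did not overlap either, and the difference was smaller, at 0.78 ± 0.17 (adjusted p = 0.00181). In the uncrushed libraries alone the Kif5a difference was 0.81 ± 0.25 (adjusted p = 0.0224), a call that did not hold without Cre uncrushed animal 3 (0.66, adjusted p = 0.144), no-Cre uncrushed animal 4 (0.90, adjusted p = 0.0541) or no-Cre uncrushed animal 6 (0.82, adjusted p = 0.0688). The same held in the crushed libraries, where it was 0.75 ± 0.25 (adjusted p = 0.0306) and was no longer called without animal 35 (0.83, adjusted p = 0.126) or 52 (0.74, adjusted p = 0.137). Kif5b, the heavy chain made in most tissues, stood at 374 and 403 CPM (uncrushed) and 297 and 419 CPM (crushed) with Cre, against 533 and 424 CPM (uncrushed) and 394 and 416 CPM (crushed) without Cre. These values overlapped, and the difference of -0.24 ± 0.18 was not called (adjusted p = 0.256).

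Shares within the heavy chains were computed from TPM, which are scaled for transcript length and so allow genes to be compared within a library. They describe the mixture and were not tested. Kif5b made up 14.2 ± 0.7% (SD, n = 2) of the 3 heavy chains in uncrushed cord with Cre and 32.1 ± 1.6% in uncrushed cord without. Kif5c took 45.7 ± 0.2% and 26.7 ± 1.3% in the same groups. The Kif5a share was 40.1 ± 0.8% and 41.3 ± 3.0%, so Kif5b and Kif5c differed in share between precipitates and Kif5a differed little. In the crushed groups the Kif5b share by TPM was 21.0 ± 2.6% with Cre and 39.9 ± 0.7% without, above the uncrushed values. By counts it was 13.2% and 15.3% with Cre before and after crush, and 29.6% and 30.5% without. The counts thus showed little of the gap between crushed and uncrushed shares.

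The kinesin light chains link kinesin-1 to much of its cargo. Klc1 was at 230.1 and 240.1 CPM in uncrushed and 127 and 153 CPM in crushed no-Cre libraries, and 993 and 935 CPM in uncrushed and 751 and 722 CPM in crushed Cre libraries. Klc2 measured 96.3 and 133 CPM in uncrushed and 46.1 and 81.3 CPM in crushed no-Cre libraries, and 524 and 501 CPM in uncrushed and 282 and 281 CPM in crushed Cre libraries. For both genes every Cre library lay above every no-Cre library, with differences of 2.22 ± 0.18 (adjusted p = 1.15e-06) for Klc1 and 2.15 ± 0.20 (adjusted p = 3.12e-06) for Klc2 on the log2 scale. Klc4 had between 4.68 and 13.1 CPM in the 8 libraries and was higher with Cre by 0.69 ± 0.27 (adjusted p = 0.0419). That call was lost in 6 of the 8 fits that left out 1 library, with the smallest difference without no-Cre uncrushed animal 4 (0.60, adjusted p = 0.064) and the largest adjusted p without Cre crushed animal 52 (0.119). By TPM the 2 main light chains took nearly all of the class in uncrushed Cre libraries, 44.5 ± 0.3% for Klc1 and 55.0 ± 0.2% for Klc2. By mean TPM they were the first and the second of all members in the Cre uncrushed group, at 902 and 1078 TPM for Klc2 and 736 and 866 TPM for Klc1. In the Cre crushed libraries Klc1 took 56.3 ± 0.4% of light chain TPM and Klc2 42.9 ± 0.2%. Without Cre the Klc1 share was 49.7 ± 9.4% in uncrushed and 55.0 ± 7.2% in crushed libraries. By counts the Klc1 share was 64.8% in Cre uncrushed and 71.5% in Cre crushed libraries, and 66.1% and 67.0% without Cre. These shares are a description and were not tested.

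The upstream sequences of the members with the smallest p in each direction are shown here because these genes differed most clearly between the precipitates. RefSeq (GRCm38.p6) gave a promoter for 52 of the 70 members, and printed are the 3 called members with the smallest p in each direction among those with an entry, leaving out the near-identical Dynlt1 copies. Each is the 250 bases upstream of the first listed start, read 5′ to 3′ on the gene's strand. Capitals mark matches, on either strand, to 5 motifs: the GC box GGGCGG, the CCAAT box CCAAT, the TATA box TATAAA, the cAMP response element TGACGTCA and the AP-1 site TGACTCA.
Higher with Cre, Dync1li1 (ENSMUSG00000032435, chr9:114688581-114688830, plus strand): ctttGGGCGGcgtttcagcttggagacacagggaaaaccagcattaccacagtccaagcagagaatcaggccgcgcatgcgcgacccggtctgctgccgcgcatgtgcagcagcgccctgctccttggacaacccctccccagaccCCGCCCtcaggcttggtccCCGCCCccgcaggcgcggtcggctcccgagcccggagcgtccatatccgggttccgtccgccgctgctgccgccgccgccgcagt
Higher with Cre, Klc1 (ENSMUSG00000021288, chr12:111758618-111758867, plus strand): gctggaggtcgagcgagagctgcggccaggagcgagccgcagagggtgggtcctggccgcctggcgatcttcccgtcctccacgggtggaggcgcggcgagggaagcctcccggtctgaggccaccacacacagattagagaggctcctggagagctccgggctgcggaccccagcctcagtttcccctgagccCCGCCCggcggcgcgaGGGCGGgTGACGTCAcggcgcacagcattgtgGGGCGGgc
Higher with Cre, Dync1i1 (ENSMUSG00000029757, chr6:5725389-5725638, plus strand): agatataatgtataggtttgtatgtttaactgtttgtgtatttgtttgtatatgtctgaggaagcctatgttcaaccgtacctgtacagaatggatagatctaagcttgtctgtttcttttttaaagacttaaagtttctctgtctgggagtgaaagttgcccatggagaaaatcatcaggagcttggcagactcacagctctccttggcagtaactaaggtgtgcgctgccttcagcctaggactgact
Lower with Cre, Kif1c (ENSMUSG00000020821, chr11:70700298-70700547, plus strand): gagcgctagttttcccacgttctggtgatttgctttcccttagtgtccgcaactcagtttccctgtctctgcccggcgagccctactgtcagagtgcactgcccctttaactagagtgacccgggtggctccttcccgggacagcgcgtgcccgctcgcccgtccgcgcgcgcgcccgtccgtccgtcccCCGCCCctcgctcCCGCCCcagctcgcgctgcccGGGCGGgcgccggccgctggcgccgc
Lower with Cre, Kif13a (ENSMUSG00000021375, chr13:46929719-46929968, minus strand): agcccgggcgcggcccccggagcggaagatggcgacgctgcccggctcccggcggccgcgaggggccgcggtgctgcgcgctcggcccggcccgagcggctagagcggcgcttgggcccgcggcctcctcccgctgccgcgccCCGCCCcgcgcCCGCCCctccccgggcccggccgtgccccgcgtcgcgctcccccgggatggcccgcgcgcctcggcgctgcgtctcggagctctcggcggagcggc
Lower with Cre, Kif24 (ENSMUSG00000028438, chr4:41464849-41465098, minus strand): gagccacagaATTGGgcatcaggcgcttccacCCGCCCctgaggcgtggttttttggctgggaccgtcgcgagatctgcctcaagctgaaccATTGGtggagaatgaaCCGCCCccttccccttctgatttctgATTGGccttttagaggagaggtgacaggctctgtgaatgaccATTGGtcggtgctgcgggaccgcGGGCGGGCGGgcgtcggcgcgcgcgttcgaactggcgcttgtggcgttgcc

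GC boxes appeared in both directions: 3 in Dync1li1, 3 in Klc1, 3 in Kif1c, 2 in Kif13a and 4 in Kif24, of which 2 overlapped, and Kif24 also held 4 CCAAT boxes. The Dync1i1 window held none of the 5 motifs and was 40.8% G and C, against 85.6% in Kif13a. Klc1 held 1 cAMP response element. A GC box was in 57.9% of the 19 promoters of members called higher, 62.5% of the 8 of members called lower, 59.6% of all 52 members' promoters and 32.9% of all 27025 promoters in the table. The cAMP response element was in 3 of the 19, 1 of the 8 and 1.62% of all promoters. These are letter matches in a short window and were not tested.

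The heavy chain, the intermediate chains and the light intermediate chains form the core of cytoplasmic dynein. Among them the intermediate and light intermediate chains divided by paralog. Dync1li1, a light intermediate chain that holds cargo adaptors, stood at 94.7 and 115 CPM in the Cre uncrushed, 88.1 and 83.6 in the Cre crushed, 12.5 and 14.7 in the no-Cre uncrushed and 12.8 and 18.3 in the no-Cre crushed libraries. The Cre libraries lay far above the no-Cre libraries, and the difference, 2.69 ± 0.19 (adjusted p = 6.75e-07), was the largest positive one among tested members over all libraries. Its paralog Dync1li2 was at 625 and 557 CPM in the Cre uncrushed, 401 and 415 in the Cre crushed, 363 and 274 in the no-Cre uncrushed and 245 and 292 in the no-Cre crushed libraries. Here too no Cre library overlapped a no-Cre library, but the difference was 0.75 ± 0.17 (adjusted p = 0.00255), and in the crushed libraries alone it was 0.60 ± 0.24 and not called (adjusted p = 0.0637). By TPM, Dync1li1 took 24.6 ± 4.0% of the light intermediate chains in Cre uncrushed and 7.4 ± 2.1% in no-Cre uncrushed libraries, and 27.9 ± 1.2% and 9.6 ± 1.1% in the crushed ones.

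Dync1i1, the intermediate chain found mainly in neurons, measured 94.5 and 107 CPM (uncrushed) and 79.1 and 71.4 CPM (crushed) with Cre, against 17.5 and 25.9 CPM (uncrushed) and 15.9 and 18.8 CPM (crushed) without Cre. Every Cre library exceeded every no-Cre library, with a difference of 2.16 ± 0.18 (adjusted p = 1.28e-06). Dync1i2, the intermediate chain made in most cells, stood at 129.6 and 119 CPM (uncrushed) and 116 and 105 CPM (crushed) with Cre, against 87.3 and 94.8 CPM (uncrushed) and 79.5 and 109 CPM (crushed) without Cre. Its groups overlapped and the difference of 0.34 ± 0.16 was not called (adjusted p = 0.0851). Dync1i1 took 43.8 ± 3.9% of intermediate chain TPM in Cre uncrushed libraries, 40.3 ± 0.2% in Cre crushed, 19.3 ± 2.8% in no-Cre uncrushed and 15.7 ± 1.4% in no-Cre crushed libraries. The heavy chain Dync1h1, which holds the motor domain and whose changes in humans cause a spinal muscular atrophy of the legs, was at 798 and 637 CPM in uncrushed and 603 and 458 CPM in crushed no-Cre libraries, and 918 and 1176 CPM in uncrushed and 802 and 772 CPM in crushed Cre libraries. No-Cre uncrushed animal 4 exceeded Cre crushed animal 52, and the call at 0.56 ± 0.18 (adjusted p = 0.019) was lost without Cre uncrushed animal 3, at 0.52. Dync1h1 was not called in the uncrushed (0.545 ± 0.267, adjusted p = 0.119) or the crushed libraries alone (0.569 ± 0.267, adjusted p = 0.104).

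**Figure D2:**
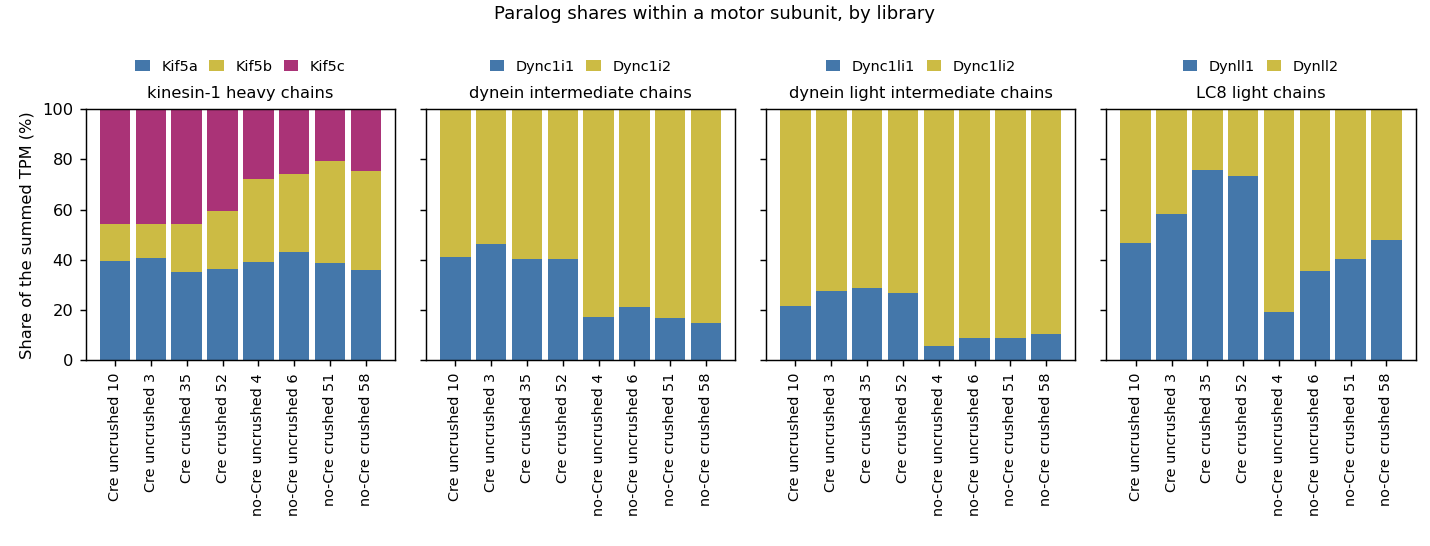
Share of TPM taken by each paralog within a motor subunit, in percent, as 1 stacked bar for each of the 8 libraries, for kinesin-1 heavy chains, dynein intermediate chains, dynein light intermediate chains and LC8 light chains. Kif5c, Dync1i1 and Dync1li1 take a larger share in each Cre library than in any no-Cre library, while group means of the Kif5a share run from 35.9 ± 0.9% to 41.3 ± 3.0% (SD, n = 2).

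The dynein light chains bind at the tail of the motor and join some of its cargo. Dynlt3, of the Tctex family, measured 110.3 and 129 CPM in uncrushed and 104 and 150.1 CPM in crushed no-Cre libraries, and 424 and 498 CPM in uncrushed and 545 and 406 CPM in crushed Cre libraries. It was higher with Cre by 1.93 ± 0.19 (adjusted p = 3.8e-06), with no overlap. Dynlt1c, of the same family, was lower, at 11.4 and 8.18 CPM (uncrushed) and 6.33 and 12.1 CPM (crushed) with Cre, against 42.9 and 34.2 CPM (uncrushed) and 50.8 and 36.6 CPM (crushed) without Cre. All no-Cre libraries exceeded all Cre libraries, and the Dynlt1c difference was -2.12 ± 0.24 (adjusted p = 1.27e-05). Dynlt1a, Dynlt1b, Dynlt1c and Dynlt1f are near-identical copies among which RSEM divides reads by estimation, so the level of any 1 of them is uncertain. Dynlt1a and Dynlt1b were not called, and their highest level was 5.70 CPM, in Dynlt1b.

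Dynll1, of the LC8 family, which also binds many proteins outside dynein, stood at 85.7 and 88.2 CPM in the Cre uncrushed, 128 and 92.2 in the Cre crushed, 21.8 and 32.3 in the no-Cre uncrushed and 24.6 and 38.6 in the no-Cre crushed libraries. The Cre libraries all lay above the no-Cre libraries, with a difference of 1.74 ± 0.20 (adjusted p = 1.32e-05). Its paralog Dynll2, also a light chain of myosin 5, was at 329 and 244 CPM in the Cre uncrushed, 159 and 126 in the Cre crushed, 326 and 151 in the no-Cre uncrushed and 117 and 143 in the no-Cre crushed libraries. The Dynll2 values overlapped between Cre and no-Cre, at 0.20 ± 0.23 (adjusted p = 0.461). Of the TPM of this pair Dynll1 took 52.6 ± 8.0% in Cre uncrushed, 74.6 ± 1.7% in Cre crushed, 27.5 ± 11.4% in no-Cre uncrushed and 44.2 ± 5.3% in no-Cre crushed libraries. By counts its shares in the same order were 23.6%, 43.4%, 11.9% and 19.3%. Dynlrb1, of the roadblock family, was higher with Cre by 1.45 ± 0.25 (adjusted p = 0.000263).

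All 6 numbered dynactin subunits were higher with Cre over all libraries. Dctn1, the subunit that binds microtubules and dynein and whose changes cause a motor neuron disease in humans, measured 178 and 172 CPM (uncrushed) and 117 and 122 CPM (crushed) with Cre, against 65.1 and 62.0 CPM (uncrushed) and 37.5 and 44.6 CPM (crushed) without Cre. Every Cre library exceeded every no-Cre library, by 1.50 ± 0.15 (adjusted p = 4.63e-06). Dctn2 (dynamitin), which holds the shoulder of the complex to its filament, stood at 130.1 and 147 CPM (uncrushed) and 126 and 111 CPM (crushed) with Cre, against 36.3 and 45.9 CPM (uncrushed) and 21.9 and 31.5 CPM (crushed) without Cre. Its groups did not overlap, with a difference of 1.96 ± 0.19 (adjusted p = 3.1e-06). Dctn3, the partner of Dctn2, was higher by 2.15 ± 0.34 (adjusted p = 0.000157). Its lowest level was 5.46 CPM in no-Cre uncrushed animal 4, and in the uncrushed libraries its call was lost without Cre uncrushed animal 3 (1.63, adjusted p = 0.0711).

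Dctn4, Dctn5 and Dctn6 belong to the pointed end of the dynactin filament, where cargo is chosen. Dctn4 was at 61.2 and 84.7 CPM in uncrushed and 71.9 and 84.0 CPM in crushed no-Cre libraries, and 126 and 128 CPM in uncrushed and 137 and 116 CPM in crushed Cre libraries. The Cre and no-Cre libraries did not overlap, and the difference was 0.75 ± 0.16 (adjusted p = 0.00171). Dctn5 differed by 1.76 ± 0.19 (adjusted p = 7.85e-06) and Dctn6 by 0.88 ± 0.21 (adjusted p = 0.00273). In the uncrushed libraries alone 5 of the 6 subunits were called, Dctn6 being the exception at 0.60 ± 0.28 (adjusted p = 0.105). Without Cre uncrushed animal 10 or 3 or no-Cre uncrushed animal 4, Dctn4 was not called there either, at differences of 0.85, 0.82 and 0.62.

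**Figure D3:**
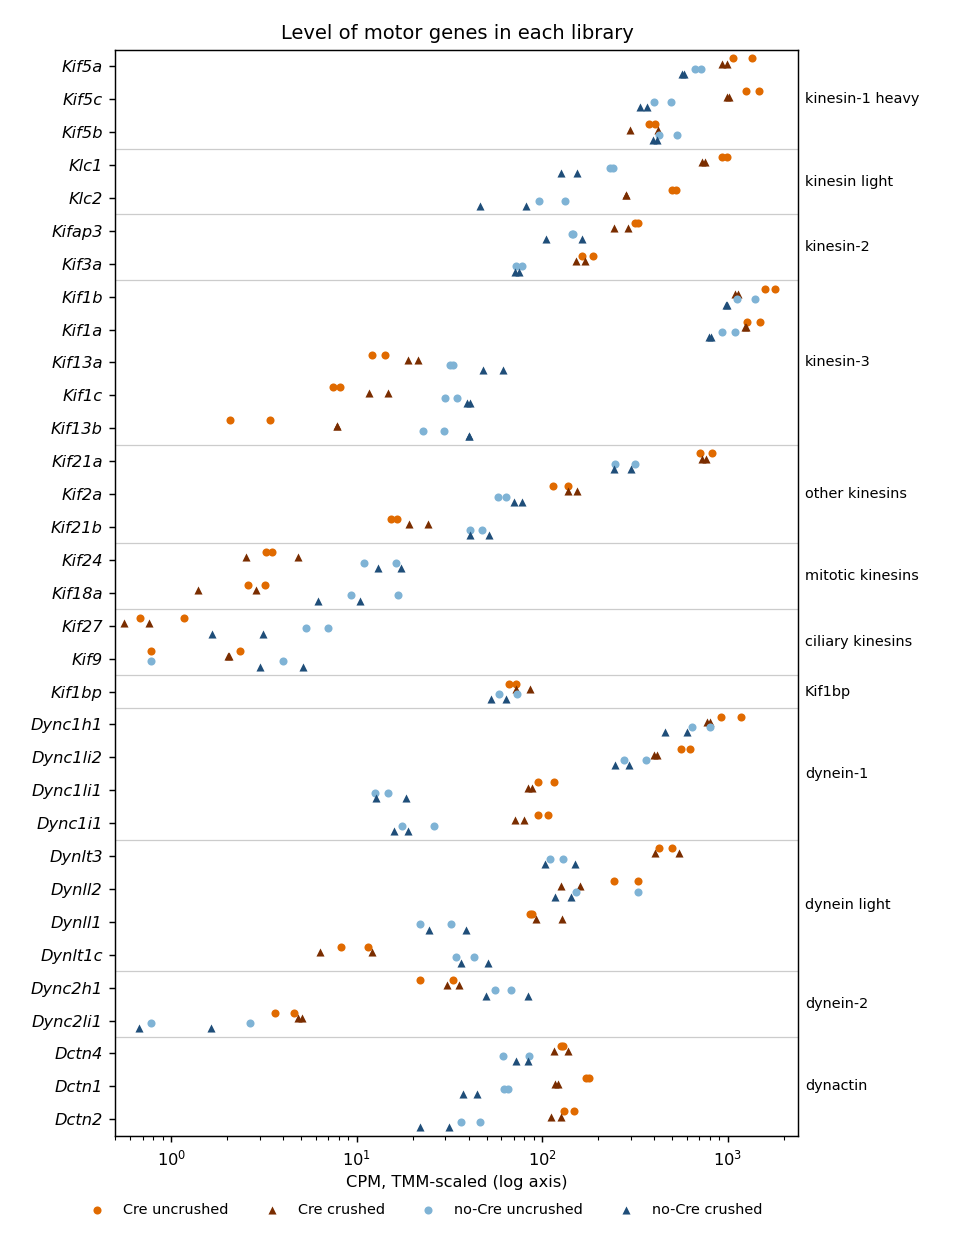
Level of the named members in CPM on a log axis, with 1 symbol per library, coloured by group and ordered by role class. The Cre libraries lie above all no-Cre libraries for Kif5c, Klc1, Dync1i1, Dync1li1 and Dctn1, below them for Kif13b and Kif1c, and among them for Kif5b.

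Kinesin-2, a trimer of Kif3a, Kif3b or Kif3c and Kifap3, carries membrane cargo in axons and protein trains in cilia. Kif3a measured 71.7 and 77.7 CPM in uncrushed and 75.0 and 71.3 CPM in crushed no-Cre libraries, and 164 and 188 CPM in uncrushed and 169 and 153 CPM in crushed Cre libraries. Kifap3 stood at 317 and 327 CPM in the Cre uncrushed, 291 and 244 in the Cre crushed, 145 and 144 in the no-Cre uncrushed and 105 and 164 in the no-Cre crushed libraries. Neither overlapped between Cre and no-Cre, with differences of 1.19 ± 0.15 (adjusted p = 2.91e-05) for Kif3a and 1.07 ± 0.18 (adjusted p = 0.00023) for Kifap3. Kif3c, the partner found mainly in neurons, was higher by 1.00 ± 0.15 (adjusted p = 0.000104). Kif3b, the partner needed for cilia, had a difference of 0.35 ± 0.21 and was not called (adjusted p = 0.168). Kif17, a kinesin-2 that works as a homodimer, had a highest level of 3.94 CPM and was lower, at -1.26 ± 0.45 (adjusted p = 0.028). That call held only without Cre uncrushed animal 3 or no-Cre uncrushed animal 4, and without any other library the difference was between -1.20 and -1.17 with an adjusted p between 0.0577 and 0.104.

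The kinesin-3 motors differed in direction. Kif1a, the carrier of synaptic vesicle precursors and dense core vesicles, was at 1259.7 and 1481 CPM in the Cre uncrushed, 1234 and 1246 in the Cre crushed, 1089 and 929 in the no-Cre uncrushed and 791 and 806 in the no-Cre crushed libraries. The Cre and no-Cre libraries did not overlap. Kif1a was higher by 0.54 ± 0.18 (adjusted p = 0.0179) over all libraries but was not called in the uncrushed (0.44 ± 0.25, adjusted p = 0.173) or the crushed libraries alone (0.63 ± 0.25, adjusted p = 0.0601). Kif1b, which carries mitochondria and synaptic vesicle precursors, measured 1593 and 1788 CPM (uncrushed) and 1086 and 1137 CPM (crushed) with Cre, against 1399.8 and 1124 CPM (uncrushed) and 978 and 991 CPM (crushed) without Cre. Its values overlapped and the difference of 0.30 ± 0.18 was not called (adjusted p = 0.169). By TPM Kif1b was the first-ranked member in the no-Cre uncrushed libraries, at 171 and 276 TPM, and was at 626 and 891 TPM in the Cre uncrushed libraries.

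The 3 kinesin-3 motors called lower with Cre were Kif13b, Kif1c and Kif13a. Kif13b, which moves vesicles with PIP3 and has been studied in myelinating glia, stood at 2.08 and 3.41 CPM (uncrushed) and 7.79 and 7.83 CPM (crushed) with Cre, against 29.6 and 22.7 CPM (uncrushed) and 40.2 and 40.0 CPM (crushed) without Cre. No library of the Cre groups reached a no-Cre library, and the difference, -2.73 ± 0.25 (adjusted p = 2.45e-06), was the largest negative one among tested members over all libraries. Kif1c, a motor of many cell types, was at 34.7 and 29.9 CPM in uncrushed and 40.9 and 39.5 CPM in crushed no-Cre libraries, and 7.42 and 8.08 CPM in uncrushed and 11.6 and 14.6 CPM in crushed Cre libraries. Kif13a, which moves endosomes and lysosome-related cargo, measured 32.0 and 32.9 CPM in uncrushed and 61.1 and 48.0 CPM in crushed no-Cre libraries, and 12.1 and 14.2 CPM in uncrushed and 18.9 and 21.4 CPM in crushed Cre libraries. For both, all no-Cre libraries exceeded all Cre libraries, with differences of -1.82 ± 0.19 (adjusted p = 6.96e-06) for Kif1c and -1.37 ± 0.17 (adjusted p = 2.81e-05) for Kif13a. Kif16b, a motor of early endosomes, had a difference of 0.06 ± 0.19 and was not called (adjusted p = 0.804).

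Markers of glia moved the same way as these motors. The 6 oligodendrocyte markers summed to between 700.8 and 1793.1 CPM in the Cre libraries and between 4405.4 and 7650.3 CPM in the no-Cre libraries. For the 6 astrocyte markers the ranges were 190.1 to 487.7 and 1405.7 to 3062.9 CPM, and for the 6 microglial markers 3.8 to 11.2 and 45.2 to 111.9 CPM. No gene of these 3 lists was at 0 counts in any group. Their part in the lower levels of Kif13b, Kif1c and Kif13a was not tested.

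Of the other kinesins outside division and cilia, 2 were higher and 3 lower. Kif21a, which restrains microtubule growth and whose changes in humans cause an eye movement disorder of the oculomotor nerve, stood at 706 and 818 CPM in the Cre uncrushed, 764 and 722 in the Cre crushed, 317 and 247 in the no-Cre uncrushed and 243 and 301 in the no-Cre crushed libraries. It was higher by 1.44 ± 0.18 (adjusted p = 2.05e-05), with no overlap. Kif2a, which takes microtubules apart at their ends, was at 114 and 138 CPM in the Cre uncrushed, 154 and 137 in the Cre crushed, 63.9 and 57.7 in the no-Cre uncrushed and 77.9 and 70.1 in the no-Cre crushed libraries. The groups with and without Cre did not overlap, with a difference of 1.01 ± 0.15 (adjusted p = 0.000118). Kif21b, the paralog of Kif21a, moved against it and measured 15.2 and 16.4 CPM (uncrushed) and 19.1 and 24.1 CPM (crushed) with Cre, against 40.6 and 47.5 CPM (uncrushed) and 51.6 and 40.6 CPM (crushed) without Cre. Its no-Cre libraries were the higher ones without overlap, and the difference was -1.28 ± 0.18 (adjusted p = 7.06e-05). Kifc2 and Kifc3, which walk towards the minus end, were lower, at -1.19 ± 0.20 (adjusted p = 0.000226) and -1.15 ± 0.31 (adjusted p = 0.00638). Kif26b was not called at 0.26 ± 0.31, nor was Kif1bp at 0.26 ± 0.17.

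The mitotic and cytokinetic kinesins were low in all libraries. The 14 genes of this class summed to between 10.7 and 17.6 CPM with Cre and between 34.7 and 44.4 CPM without, and 8 were tested. Kif24, which acts at centrioles, stood at 3.25 and 3.51 CPM (uncrushed) and 2.53 and 4.83 CPM (crushed) with Cre, against 10.9 and 16.3 CPM (uncrushed) and 17.2 and 12.99 CPM (crushed) without Cre. Kif18a, which aligns chromosomes, was at 16.8 and 9.35 CPM in uncrushed and 10.4 and 6.16 CPM in crushed no-Cre libraries, and 2.60 and 3.21 CPM in uncrushed and 1.39 and 2.85 CPM in crushed Cre libraries. Both were lower with Cre in every pairing of libraries, at -2.03 ± 0.29 (adjusted p = 7.22e-05) and -2.06 ± 0.35 (adjusted p = 0.000285). In the crushed libraries both calls were lost without Cre crushed animal 35, at -1.61 (adjusted p = 0.0522) and -1.51 (adjusted p = 0.121). The Kif18a call in the crushed libraries was also lost without no-Cre crushed animal 51 (-1.51, adjusted p = 0.0943), and that in the uncrushed libraries without Cre uncrushed animal 10 (-1.96, adjusted p = 0.0529) or no-Cre uncrushed animal 4 (-1.64, adjusted p = 0.051). Kif11, Kif20a, Kif20b, Kif22, Kif23 and Kif4 were not called, and their highest level was 4.61 CPM, in Kif22. The 7 markers of dividing cells summed to between 6.8 and 10.4 CPM with Cre and between 16.1 and 33.4 CPM without. Of these, 4 were tested and 2 were lower. Top2a and Ccna2 passed the filter only through no-Cre libraries, so the count describes the genes that passed and a lower call of either is no support. The part of these 7 markers in the lower levels of Kif24 and Kif18a was not tested.

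The genes of cilia were mostly low. Dync2h1, the heavy chain of the dynein that returns cargo along cilia, measured 67.5 and 55.3 CPM in uncrushed and 83.9 and 49.8 CPM in crushed no-Cre libraries, and 21.9 and 33.0 CPM in uncrushed and 30.8 and 35.7 CPM in crushed Cre libraries. It was lower with Cre, at -1.08 ± 0.21 (adjusted p = 0.000611), with no overlap. Its light intermediate chain Dync2li1 stood at 3.64 and 4.58 CPM in the Cre uncrushed, 5.06 and 4.83 in the Cre crushed, 0.78 and 2.67 in the no-Cre uncrushed and 1.63 and 0.666 in the no-Cre crushed libraries. It was higher with Cre in every pairing, at 1.65 ± 0.48 (adjusted p = 0.00974), on few counts. All 4 Cre libraries but only 2 of the 4 no-Cre libraries reached the filter's level. Dync2li1 was not called in the uncrushed libraries alone (1.17 ± 0.68, adjusted p = 0.184) but was in the crushed (2.07 ± 0.65, adjusted p = 0.0246). That call held in 5 of the 8 fits that left out 1 library, which gave differences from 1.64 to 2.90. Kif27, related to the Hedgehog regulator Kif7, was at 1.17 and 0.682 CPM in the Cre uncrushed, 0.76 and 0.554 in the Cre crushed, 7.02 and 5.34 in the no-Cre uncrushed and 3.12 and 1.67 in the no-Cre crushed libraries. It was lower with Cre, at -2.28 ± 0.52 (adjusted p = 0.00209), and no library pair overlapped. None of its Cre libraries reached the filter's level, so it was tested only through the no-Cre libraries, where it was high, and the call is no support for a difference.

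Kif9, a kinesin of motile cilia, measured 0.781 and 2.34 CPM (uncrushed) and 2.02 and 2.06 CPM (crushed) with Cre, against 0.78 and 4.01 CPM (uncrushed) and 5.16 and 3.00 CPM (crushed) without Cre. Its values overlapped (-0.85 ± 0.54, adjusted p = 0.189). Kif6 and Kif7 were not called, and Kif19a, which sets the length of motile cilia, was lower, at -1.63 ± 0.65 (adjusted p = 0.0451). Kif19a too passed the filter only through no-Cre libraries. Its call held only without no-Cre uncrushed animal 6, and without any other library the difference was between -2.01 and -0.96 with an adjusted p between 0.0532 and 0.227. The 6 markers of ependymal cells with motile cilia summed to between 12.8 and 15.4 CPM with Cre and between 8.2 and 23.3 CPM without. Of the 3 tested, Dnah11 was lower, and it passed the filter through no-Cre libraries.

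Genes that work with these motors were taken as 5 lists. Of 14 regulators and other parts of dynein and dynactin, 11 were higher with Cre over all libraries and 1 was lower. In this list Spdl1 reached the filter's level in 4 Cre libraries but only 1 no-Cre library, so a higher call of it is no support. Among the 4 most abundant, Actr1a, the filament of dynactin, was higher by 1.70, its near relative Actr1b by 1.08, the capping protein Capzb by 1.66, and Pafah1b1 (LIS1), a dynein activator, by 0.86 on the log2 scale. The member that was lower was Nde1, at -2.07, while its paralog Ndel1 was higher at 1.22. Nde1, Ndel1 and, below, Trak1 and Trak2 were picked after their values were known.

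Of 34 tested adaptors that join motors to cargo, 12 were higher and 4 lower, with a median of 0.311. Here Rilp reached the filter's level in 4 Cre libraries but only 1 no-Cre library, so a higher call of it is no support. Trak1, which joins mitochondria to kinesin-1, was higher at 0.69 and its paralog Trak2 was lower at -1.49. Of the 4 most abundant, the scaffolds Mapk8ip2 and Mapk8ip3, which bind kinesin light chains, were higher at 2.07 and 0.96, while Kidins220 and Spag9 were not called at 0.07 and -0.12. Of 30 proteins that bind or modify microtubules, 19 were higher and 5 lower, and the 4 most abundant were all among the higher: Map1b at 2.17, Stmn2 at 3.25, Map2 at 1.40 and Map1a at 0.91.

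Motors outside the set were mostly lower with Cre. Of 14 tested subunits of axonemal dynein, which beats cilia, none was higher and 11 were lower, with a median of -2.065. Of these 14, Dnah3, Dnah7a, Dnah11 and Dnali1 reached the filter's level in 2 or more libraries only without Cre and Dnal4 only with Cre, so the count and the median describe the genes that passed and not the whole list. The most abundant were Dnal1 at -1.005 and Dnah7b at -2.55. Their summed level was between 37.1 and 63.2 CPM in Cre and between 114.6 and 204.2 CPM in no-Cre libraries. All 4 actin-based myosins tested (Myo5a, Myo5b, Myo6 and Myo10) were lower, from -3.08 for Myo6 to -0.59 for Myo5a. In each list the shares stand beside 28.7% of all genes higher and 31.2% lower.

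Crush was then compared within each precipitate. In the Cre libraries no member was called by edgeR in either direction, where 0.0723% of all genes were (11 of 15208, 0.0395% higher and 0.0329% lower), and 8 of the 57 members had an unadjusted p under 0.05 (9.34% of all genes did). The median log2 difference was -0.037 over the members and 0.029 over all genes. DESeq2's Wald test called 1 member, Kif13b, and 1.05% of all genes. The members summed to between 10271.1 and 10505.4 CPM after crush and between 12262.7 and 13576.1 CPM without. In the no-Cre libraries they summed to between 5790.5 and 6062.9 CPM after crush and between 6709.9 and 7731.4 CPM without. On the TMM scale both sums were thus lower after crush. Without TMM, the members took 0.884 and 0.563% of no-Cre counts after crush and 0.404 and 0.483% without crush. With Cre they took 1.44 and 1.381% after crush and 1.147 and 1.451% without crush. The fall in the sums thus depends on the scaling.

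Kif13b had the smallest p. It went from 2.08 and 3.41 CPM without crush to 7.79 and 7.83 CPM with crush, a difference of 1.48 ± 0.32 on the log2 scale that was not called (adjusted p = 0.157). Kif1c went from 7.42 and 8.08 to 11.6 and 14.6 CPM (0.75 ± 0.26, adjusted p = 0.398). Kif13a went from 12.1 and 14.2 to 18.9 and 21.4 CPM (0.61 ± 0.25, adjusted p = 0.472). For all 3 the crushed pair lay above the uncrushed pair. They were picked by their p in this comparison, so this is no support for a difference. Glial markers had positive differences in the same comparison, none called: the medians were 0.726 over 6 oligodendrocyte, 0.956 over 6 astrocyte and 1.600 over 6 microglial markers. The microglial markers summed to only 3.8 to 11.2 CPM with Cre. Lists outside glia went both ways, also with no call. The medians were 1.164 over 4 endothelial markers, 1.144 over 14 axonemal dynein subunits, 0.051 over 4 pan-neuronal and -0.323 over 6 cholinergic markers. Without Cre, where no glial marker was called either, the crush medians of the oligodendrocyte, astrocyte and microglial lists were -0.293 (5 of 6 below 0), 0.567 and 0.421. Kif13b, Kif1c and Kif13a had no-Cre differences of 0.62, 0.32 and 0.75. The part of any of these lists in the values of these 3 motors was not tested.

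The other 5 members at an unadjusted p under 0.05 had lower values after crush. Klc2 went from 524 and 501 to 282 and 281 CPM (-0.86 ± 0.28, adjusted p = 0.369). Dynll2 went from 329 and 244 to 159 and 126 CPM (-1.004 ± 0.34, adjusted p = 0.375). Dctn1 went from 178 and 172 to 117 and 122 CPM (-0.55 ± 0.21, adjusted p = 0.44). Kif1b and Dync1li2 had differences of -0.60 ± 0.26 and -0.53 ± 0.24. None of the 5 passed the adjusted threshold. Their pairs did not overlap, but they were picked by their p in these same libraries, so this is no support for a difference. Klc2 was called in a fit of the Cre libraries alone (-0.86, adjusted p = 0.038), which called 0.913% of its genes, and Dynll2 and Kif13b were called without the filter on low counts (-0.98, adjusted p = 0.0432, and 1.51, adjusted p = 0.0155), where 1.02% of all genes were.

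**Figure D4:**
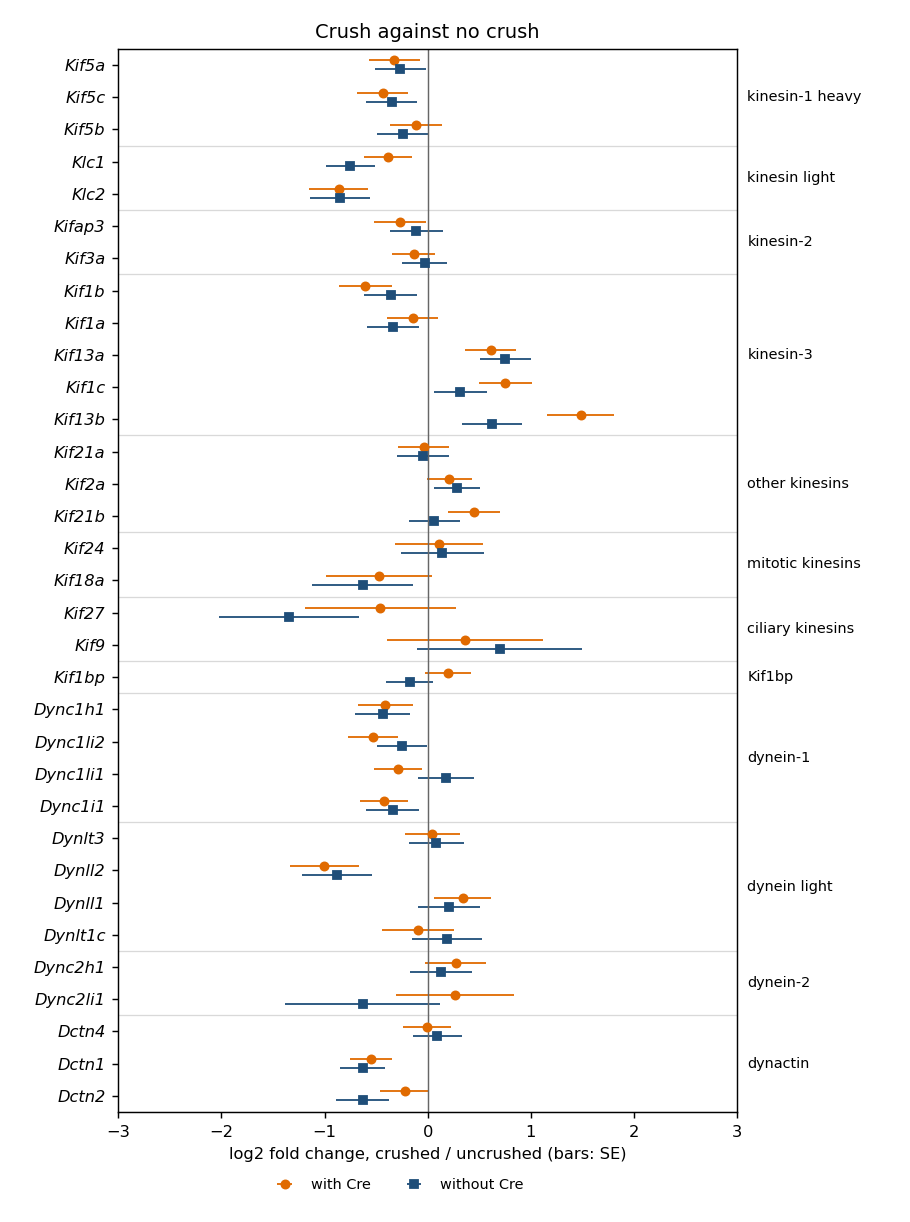
Log2 fold change of crush against no crush on the x axis for the named members, ordered by role class, with 1 symbol for the Cre and 1 for the no-Cre libraries, each from 2 against 2 libraries, and bars for the standard error. No member was called in either comparison. Klc2 lies at -0.86 with Cre and -0.85 without, and Kif13b at 1.48 with Cre and 0.62 without.

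In the no-Cre libraries crush gave no called member either (0.0723% of all genes, 11 of 15208, 0.0197% higher and 0.0526% lower), and 7 of the 57 members had an unadjusted p under 0.05, a share near the 12.8% of all genes. Klc1 went from 230.1 and 240.1 to 127 and 153 CPM (-0.75 ± 0.23, adjusted p = 0.297), and DESeq2's Wald test, which called 0.697% of all genes, called it (-0.76, adjusted p = 0.0334). Klc2 went from 96.3 and 133 to 46.1 and 81.3 CPM (-0.85 ± 0.29), and Dctn1 from 65.1 and 62.0 to 37.5 and 44.6 CPM (-0.63 ± 0.22). Neither passed. On the TMM scale Klc2, Dctn1 and Dynll2 thus had lower values after crush with Cre and without it. Scaling by totals moved the all-gene median of the no-Cre comparison up by 0.96 log2 units. The no-Cre differences of Klc1, Klc2, Dctn1 and Dynll2 (-0.88) were all smaller in size than that. Their direction without Cre thus depends on the scaling. Kif13a was the 1 member of the 7 with higher values, from 32.0 and 32.9 to 61.1 and 48.0 CPM (0.75 ± 0.25, adjusted p = 0.299), and its values were higher after crush with Cre too. Scaling by totals without TMM called 3 members higher in the no-Cre comparison, beside 7.88% of all genes higher and 0.0329% lower.

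The difference between the crush effects with and without Cre was tested as an interaction. No member was called (0.0% of all genes, 0 of 15208), and 1 member, the near-identical copy Dynlt1a, had an unadjusted p under 0.05. Over all genes 905 had an unadjusted p under 0.05 (5.95%), and DESeq2's Wald test called 9 genes higher and 6 lower, with no member among them. For Klc2 the interaction was -0.01 ± 0.41, for Dynll2 -0.13 ± 0.47 and for Kif13b 0.86 ± 0.43 on the log2 scale. None of the 5 pathway lists had a called gene in either crush comparison or in the interaction.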

How the data were processed

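Ribosome-bound mRNA was sequenced from 8 spinal cords, and 1 gene table per library was deposited. The authors obtained the expected counts and TPM of these tables using Bowtie2 2.2.0 and RSEM 1.2.12, per the submitters' processing notes. For the genome build and annotation: not given in the sources used here. Expected counts were rounded to whole numbers. TPM served only for levels and shares within a library. Of 38924 Ensembl identifiers 37607 (96.6%) matched a symbol, and 5 further matches to the symbol pattern were not protein-coding.

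The counts went into edgeR 4.0.16 (R 4.3.3). There filterByExpr (minimum count 10, total 15) kept 15208 genes, libraries were scaled by TMM, and 1 quasi-likelihood model with a mean for each group took in all 8 libraries, leaving 4 residual degrees of freedom. In the comparison over all libraries Cre and crush were separate terms. Tests were two-sided and calls were made at a Benjamini-Hochberg adjusted p of 0.05 over all genes tested. The SE after ± was obtained from the log2 fold change and the F statistic of its test (their quotient, with F as its square root), and shares carry an SD with n = 2. A floor of 3 counts stood for 0.19 to 1.17 CPM, which covers counting error only. The biological coefficient of variation was 0.202 with Cre and 0.322 without. Groups followed the titles. No paired analysis was possible because the groups have no number in common.

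Values in every library are given for the 2 most abundant members of each of 12 role classes, the 5 members with the smallest p in each direction over all libraries, and 12 members picked by name; up to 4 of each pathway list were named by abundance. The members, role classes and lists were chosen with earlier results of these data known, and other members are named to account for the set. Dnai1 and Dnai2 were not matched, and Kifbp is the member Kif1bp. Scripts were tested on simulated data. Alternatives were DESeq2 1.42.0, its size factors, library-size scaling, no filter, only the compared groups, the genotype entry, leaving out both contradictory libraries, age as covariate and each library left out.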

Additional observations from a re-analysis of the deposited data

How the results depend on the processing

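Of the 99 calls of a member in a comparison of Cre with no-Cre, 99 held under DESeq2's Wald test and 99 with its size factors, 97 without the filter on low counts, 86 without both contradictory libraries, 84 with age as a covariate and 82 under library-size scaling, and none reversed under these. The 99 calls are not separate results. They are counted over 3 comparisons, of which that over all libraries uses the libraries of the others again, so 1 member can count up to 3 times. Library-size scaling left 3 members lower in the uncrushed libraries and called 3 higher after crush without Cre (5 lower and 1199 higher, or 7.88%, of all genes). Age as a covariate left 4 members lower in the crushed libraries. Of all 15208 genes tested it left 1034 lower there, against 3235 without the covariate. With groups taken from the genotype entry, 0 members were called higher and 0 lower in each comparison of Cre with no-Cre. In that grouping the uncrushed differences reversed to 0.36 for Dynlt1c, -0.16 Dynll1, -0.17 Kif3a, -0.15 Kif3c, 0.14 Kif1c, -0.14 Kif2a, -0.06 Kif21a, -0.19 Dctn4, -0.03 Klc2, -0.21 Dctn2, -0.03 Kifap3, -0.10 Kif5c, 0.61 Kif18a, -0.71 Dctn3, -0.24 Dync1i1, -0.23 Dctn5, -0.23 Dynlt3, -0.27 Dync1li1, 0.01 Dync2h1, 0.27 Kif13b, 0.44 Kif27 and -0.17 Kif5a, and over all libraries to 0.23 for Kif19a (0.0% of all genes were called). It exchanges animals 3 and 4 between the 2 uncrushed groups and leaves the crushed groups as titled. For crush with Cre, DESeq2 and no filter each called 1 member higher, and no filter and the compared groups alone each called 1 lower. For crush without Cre, DESeq2 called 1 lower. With 1 library left out, between 16 and 21 members were higher and 8 to 11 lower in the uncrushed, 15 to 23 and 4 to 9 in the crushed (15 and 4 without Cre crushed animal 35) and 23 to 26 and 11 to 13 in all libraries. Calls over all genes also changed with the library left out. These ranges thus say nothing particular about the members. The cause of the other changes was not tested. The no-Cre totals, between 4826979 and 6468110 expected counts, limit what can be seen of the mitotic and ciliary kinesins.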
